A study of Arabidopsis thaliana with 6 samples.

Results

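Respiratory burst oxidase homologs (RBOHs) are the plant NADPH oxidases. The genes described here are 7 family members chosen by locus, RBOHA (AT5G07390), RBOHB (AT1G09090), RBOHC (AT5G51060), RBOHD (AT5G47910), RBOHE (AT1G19230), RBOHF (AT1G64060) and RBOHI (AT4G11230), out of 33602 genes in the deposited table. They were measured in leaves of the *Arabidopsis thaliana* catalase mutant cat2-2, in the Columbia-0 ecotype, by sequencing of messenger RNA. CAT2 is the main leaf catalase, which removes the hydrogen peroxide that photorespiration makes in peroxisomes. The high CO2 group (3 libraries) came from plants aged 3 weeks, grown at 3000 ppm CO2, 75% relative humidity and 21 °C under light of 120 µmol m-2 s-1, with 16 h days and 8 h nights. The high light group (3 libraries) came from such plants after 3 h at 400 ppm CO2, 55% relative humidity and 21 °C under light of 1200 µmol m-2 s-1 in another chamber. Each library pooled middle-aged leaves of 15 plants, and the whole experiment was done anew for each replicate. All 6 libraries carry cat2-2 and no wild type was compared, so a difference belongs to the whole change of CO2, light, humidity, chamber and sampling time in this mutant.

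An RBOH protein sits in the plasma membrane, takes electrons from NADPH in the cytosol and passes them to oxygen outside the cell, where superoxide and then hydrogen peroxide form. Its cytosolic N-terminal part holds calcium-binding EF-hands and sites for kinases, so that receptors, calcium and phosphorylation together switch the enzyme on. In leaves, RBOHD makes most of the burst that follows immune and wound signals and passes a wave of reactive oxygen from cell to cell. RBOHF acts with RBOHD in stomatal closure and, in roots, in lignin deposition of the Casparian strip. RBOHC is known from root hair growth, RBOHE from the tapetum of anthers and RBOHB from seeds. Transcript levels do not report the activity of these enzymes.

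Library totals were 18047295 to 24149149 counts. CAT2 (AT4G35090) was still counted in every library, with 83.2 to 108 CPM (counts divided by the scaled library size) at high CO2 and 33.5 to 43.8 CPM at high light. The leaf label fitted its markers: RBCS1A, a Rubisco small subunit, had 21538 to 32013 CPM at high CO2, then 9159 to 13729 CPM at high light. Replicate 3 of both groups stood apart from replicates 1 and 2 along the second principal component (4.9% of the variance, with 89.6% along the first). Results were therefore also computed without replicate 3 of both groups. In bulk leaves, fewer cells of a type and less RNA per cell cannot be told apart.

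RBOHC, RBOHD and RBOHF rose in high light, and RBOHC rose far more than the others. RBOHC went from 0.967 ± 0.234 to 105 ± 6.24 CPM (SD, n = 3 per group), about 107-fold by the fit. RBOHD rose 2.23-fold, from 103 ± 22.2 to 231 ± 38 CPM, and RBOHF rose 2.37-fold, from 15.1 ± 1.94 to 35.6 ± 9.17 CPM. The rare RBOHE rose 3.85-fold, from 0.235 ± 0.0775 to 0.93 ± 0.29 CPM. Calls rest on the quasi-likelihood test of edgeR, at an adjusted p (Benjamini-Hochberg, over all 18504 tested genes) under 0.05. Of the 7 RBOH genes 4 passed the filter on low counts and were called upward, and 0 were called downward. RBOHE passed only through its high light libraries, so its call adds nothing to that count, and RBOHA, RBOHB and RBOHI were not tested. The contrast called 60.8% of all tested genes, 30.4% upward, so a called rise is common in these data. Over all genes the median log2 fold change was -0.06, or -0.33 with upper-quartile scaling, where rises made up 35.7% of calls instead of 50.1%. RBOHC, RBOHD, RBOHE and RBOHF stayed called upward under it, with log2 fold changes of 6.48, 0.89, 1.68 and 0.97.

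**Figure D1:**
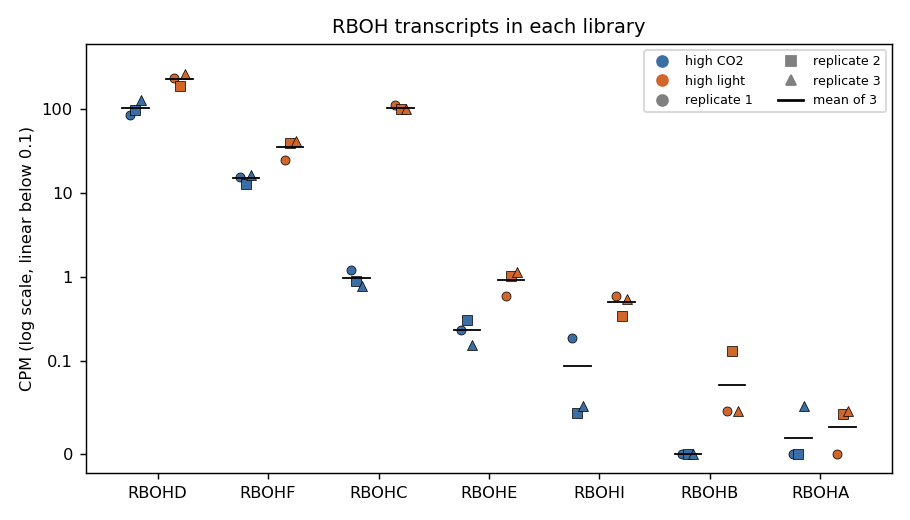
CPM of each RBOH gene (log axis, linear below 0.1) in the 3 high CO2 and 3 high light libraries, with a marker shape per replicate and a line at the group mean. For RBOHD, RBOHF and RBOHC each high light library lies above each high CO2 library, as for 33.3% of all tested genes. RBOHC moves farthest, from 0.967 to 105 CPM. RBOHE, RBOHI and RBOHB show the same order, but with few reads, and that share is no background for them.

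RBOHD, the main oxidase of leaf immune and wound signals, was the most abundant member in every library. Replicates 1 to 3 held 1804, 2181 and 2461 counts in high CO2, while the high light libraries held 5164, 4386 and 5765. This is 85.3, 97 and 128 CPM against 239, 190.1 and 265 CPM. The groups did not overlap, and replicate 3 was the highest library of each group. The log2 fold change was 1.16 ± 0.20 (SE; adjusted p = 9.5e-04 by edgeR). Leaving out single libraries gave log2 fold changes of 1.05 to 1.40, and leaving out replicate 3 of both groups gave 1.31. The other count tools gave like sizes, 1.20 with DESeq2 and 1.17 with limma-voom.

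RBOHF, the partner of RBOHD in stomatal closure, was counted at a lower level. The libraries held 330, 290 and 320 counts in high CO2, and in high light 543, 916 and 914, or 15.6, 12.9 and 16.7 against 25.1, 39.7 and 42 CPM. The groups did not overlap, and high light replicate 1 lay below the other high light libraries. The log2 fold change was 1.24 ± 0.21 (adjusted p = 8.9e-04 by edgeR), and it was 1.44 without high light replicate 1. It was 1.27 without replicate 3 of both groups, and 1.11 to 1.44 over all single libraries left out. The standard errors of the RBOHD and RBOHF log2 fold changes overlap. The ratio of RBOHD to RBOHF, per length, was 6.06 to 8.53 in high CO2 libraries and 5.31 to 10.5 in high light libraries, so the groups overlapped in it.

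RBOHC (also RHD2), required in roots for root hair elongation, was close to silent in high CO2 leaves. It had 26, 20 and 15 counts there, against 2419, 2360 and 2177 in high light. Divided by exon length as well, these are 0.374, 0.27 and 0.238 RPKM (CPM per kilobase of merged exon) against 34, 31.1 and 30.4 RPKM. The high light libraries lay close together, and none was near the high CO2 range. The log2 fold change was 6.75 ± 0.19 (adjusted p = 2.2e-07 by edgeR), and 202 of the 18504 tested genes had a larger one. Leaving out single libraries gave 6.69 to 6.98, with the highest value without high CO2 replicate 1, the library with most RBOHC counts in its group. It was 6.73 without replicate 3 of both groups. By counts alone the ratio was 112, with a 95% exact binomial interval of 87.3 to 147, which covers counting error only.

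Root hair markers were at or near 0 beside this level of RBOHC. Of 7 root hair markers, COBL9, RHD6, EXPA18, RSL4, LRX1 and PRP3 had 0 counts in all 6 libraries, where 0 counts over a group allow up to 0.0466 CPM (high CO2) or 0.0459 CPM (high light). The exception was the expansin gene EXPA7, with 0 counts in high CO2 and 12, 2 and 5 counts in high light. The summed root hair markers reached at most 0.555 CPM in a library.

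The closest coding sequence to RBOHC in the annotation, AT4G25090 with 76.4% identity, had 0 counts in every library. RBOHD was closest to RBOHC (68.8% identity), RBOHA to RBOHC (69.8%) and RBOHB to RBOHD (67.5%). RBOHF and RBOHI were closest to each other (69.9%), and RBOHE was closest to RBOHF (64.6%). None of the 7 shared more than 5.3% of its exon bases with an opposite-strand gene, and RBOHC, RBOHD, RBOHF and RBOHI shared 0.

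RBOHE, known from the tapetum, rose from 5, 7 and 3 counts in high CO2 to 13, 24 and 25 in high light. The groups did not overlap, but every library was at or below 1.15 CPM. The log2 fold change was 1.94 ± 0.42 (adjusted p = 0.00364 by edgeR), in a range of 1.64 to 2.23 over 13 edgeR refits, lowest without replicate 3 of both groups. RBOHE passed the filter on low counts only through its high light libraries, so this call adds nothing to the count of risen members. By counts alone the ratio was 4.07, with a 95% exact binomial interval of 2.29 to 7.7. Of 4 tapetum markers, DYT1 and MS1 were at 0 counts in all libraries, MYB80 had at most 1 count in a library, and AMS had 1 to 3 counts in the high CO2 libraries against 4 to 5 under high light.

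The remaining 3 members did not pass the filter on low counts. RBOHI had 4, 1 and 1 counts in the high CO2 libraries against 13, 8 and 12 under high light, without overlap, a ratio of 5.42 by counts with a 95% interval of 2.24 to 15.8. An exact two-sided permutation test of its CPM had p = 0.1, the lowest possible with 3 libraries a group. With no filter on low counts RBOHI was called, at a log2 fold change of 2.31 (adjusted p = 0.00939 by edgeR). The edgeR adjusted p was 0.00444 to 0.032 over the 5 refits that RBOHI entered. Where the filter was used, it entered only through its high light libraries, so those calls add nothing. RBOHB, known from seed after-ripening, had 1, 3 and 1 counts in high light after 0 in high CO2. Taking the high light counts as exact, this is 1.64 times a floor of 3 counts over the high CO2 group. The 95% exact binomial interval of the ratio of high light to high CO2, which also covers the error of the high light counts, reaches down to 0.902, so a rise of RBOHB was not detectable at this depth. RBOHB was not called with no filter (adjusted p = 0.0867 by edgeR). RBOHA had 0, 0 and 1 counts in high CO2, then 0, 1 and 1 in high light, so both groups were under the floor and RBOHA showed no pattern that these depths can resolve.

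RBOHC, RBOHD and RBOHF had every high light library above every high CO2 library, which was so for 33.3% of tested genes. RBOHE, RBOHI and RBOHB did too, but with few reads, and this share is no background for them, since RBOHE passed the filter only through high light and RBOHI and RBOHB did not pass it. The pollen tube oxidase genes RBOHH (AT5G60010) and RBOHJ (AT3G45810) had 0 counts in every library. Pollen markers VGD1, ANX2 and RALF4 were likewise at 0, while ANX1 had 73 to 77 counts in the high CO2 libraries against 42 to 57 under high light.

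**Figure D2:**
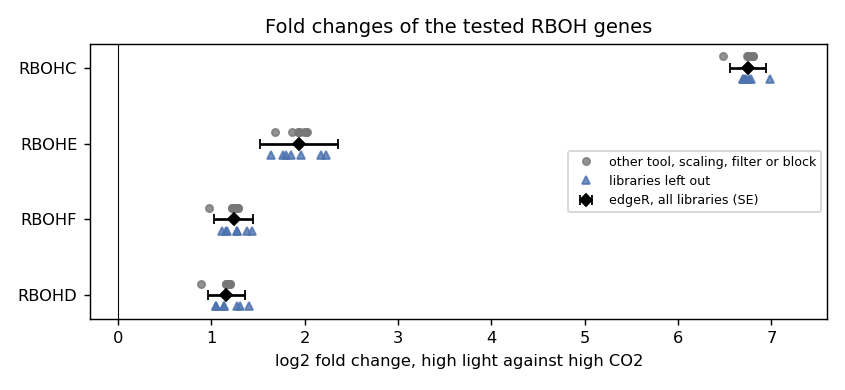
Log2 fold change of the 4 tested RBOH genes with its standard error (black), under other tools, scalings, filters and the replicate block (grey) and with libraries left out (blue). All points lie to the right of 0, with RBOHC between 6.48 and 6.98 and RBOHD between 0.89 and 1.40.

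Levels of different genes were compared per length, in RPKM. In high CO2 the order was RBOHD (28.7 ± 6.16 RPKM), RBOHF (3.77 ± 0.487), RBOHC (0.294 ± 0.071), RBOHE (0.0704 ± 0.0233) and RBOHI (0.0299 ± 0.0256), with RBOHA and RBOHB at or below 1 count per library. RBOHE and RBOHI overlapped between libraries, and the members above them did not overlap with their neighbours. In high light the order was RBOHD (64.2 ± 10.5 RPKM), RBOHC (31.8 ± 1.9), RBOHF (8.91 ± 2.3), RBOHE (0.279 ± 0.0871) and RBOHI (0.157 ± 0.0423). RBOHC thus changed places with RBOHF, and again RBOHE and RBOHI were the neighbours that overlapped.

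The 7 genes summed to 28.1, 30.5 and 40.1 RPKM in high CO2 and 107, 94.3 and 115 RPKM in high light, a ratio of group means of 3.2. RBOHD made up 87.1% ± 2.44 of this sum in high CO2 and 60.6% ± 4.15 in high light (SD, n = 3). The share of RBOHC was 0.937% ± 0.372 in high CO2 and 30.4% ± 3.48 in high light. By library, RBOHC took 1.33%, 0.886% and 0.593% at high CO2, against 31.8%, 33% and 26.4% at high light, so the groups lay far apart. The share of RBOHF was 11.6% ± 1.97 and 8.52% ± 2.39, with overlapping libraries. RBOHE held 0.225% ± 0.0974 and 0.267% ± 0.0862 of the sum and RBOHI 0.0994% ± 0.0971 and 0.148% ± 0.0306, so both stayed minor. Per library, RBOHD exceeded RBOHC by 63.3 to 149.8 times in high CO2 and by 1.7 to 2.42 times in high light. RBOHC was below RBOHF in every high CO2 library, at 0.0569 to 0.0957 times its level, and above it in every high light library, at 2.89 to 5.41 times.

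**Figure D3:**
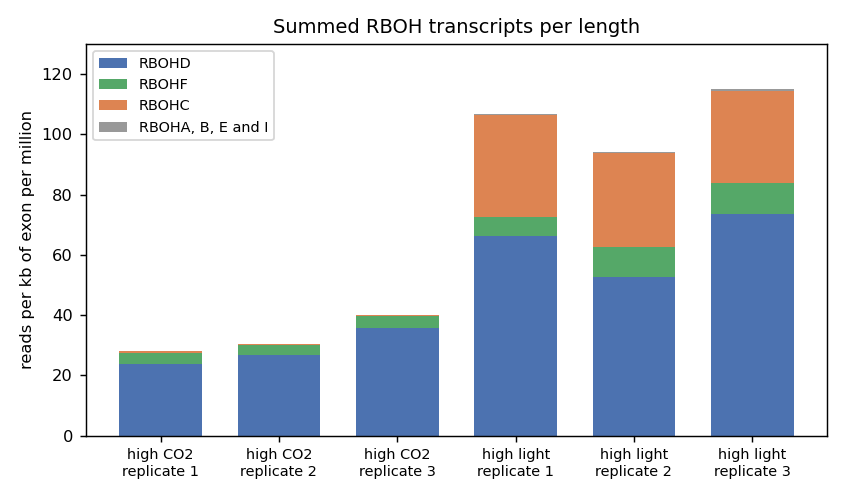
RPKM of the RBOH genes (CPM divided by exon length in kilobases), stacked for each of the 6 libraries. The sum lies at 28.1 to 40.1 RPKM in the high CO2 libraries and at 94.3 to 115 RPKM in the high light ones, and RBOHC (orange) takes 26.4% to 33% of each high light bar.

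Genes with the most similar profile were sought for the 3 members whose mean log2 CPM reached 2, among 13920 such genes, by the root mean square difference of mean-centred log2 CPM over 6 libraries. For RBOHC these were AT5G14730 (difference 0.196, log2 fold change 6.68 ± 0.20) and AT2G18690 (0.217, 6.84 ± 0.21), neither with a symbol in the annotation. For RBOHD they were XBAT31 (AT2G28840, difference 0.0639) and the cytochrome P450 gene CYP81D1 (AT5G36220, 0.0701). For RBOHF they were the receptor-like protein gene RLP13 (AT1G74170, difference 0.0792) and the SUMO protease gene ESD4 (AT4G15880, 0.0828). These are descriptions over libraries that share the same 2 conditions.

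Markers of leaf cell types moved beside these genes, and their part in the results was not tested. Guard cell markers, from cells where RBOHD and RBOHF act, summed to 47 to 48.7 CPM at high CO2, against 40.0 to 55.2 CPM at high light. Among them MYB60 went from 10.7 to 11.8 CPM down to 3.9 to 4.11, FAMA from 10.8 to 12.2 down to 5.68 to 7.26, KAT1 from 20.9 to 22.8 up to 26.8 to 43.1, and HT1 had 2.84 to 3.47 against 2.25 to 2.51 CPM. Mesophyll markers all fell, from a sum of 37561 to 55598 CPM to 17892 to 27114 CPM (LHCB1.3 from 11277 to 17154 to 6549 to 10526, CA1 from 4746 to 6909 to 2184 to 2859), where LHCB1.3 has a near copy of 96.4% identity that could share its reads. Vascular markers summed to 225 to 248 CPM against 151 to 197 CPM (SUC2 191 to 209 against 123 to 169, XCP1 12.2 to 15.5 against 10.1 to 11.1, XCP2 14.8 to 20.4 against 10.6 to 14.6, CESA7 3.47 to 4.01 against 1.71 to 3.31). Root endodermis markers, from cells where RBOHF builds the Casparian strip, summed to at most 0.756 CPM in a library. Of these, CASP5 and MYB36 were at 0 counts throughout, CASP1 and CASP2 had at most 1 count in a library, CASP4 at most 6, PER64 at most 7 and ESB1 at most 10. ESB1 is uncertain, with 84.3% of its exon bases in an opposite-strand gene that is also a 96% identical copy.

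Genes around the oxidases were grouped by role into 8 lists with 77 loci. The lists were chosen with earlier results of these data known, so their counts are descriptions and no set test was run. Of 76 tested, 50 rose, 13 fell and 13 were not called, with a median log2 fold change of 1.24, against a median of -0.06, 30.4% risen and 30.4% fallen over all tested genes. As with RBOHE, 7 of the 76 passed the filter only through the group where they were high, and of the other 69 genes 44 rose and 12 fell (median 1.14). Receptors and co-receptors of burst or hydrogen peroxide signalling rose for 11 of 13 and fell for 1, or 2 with upper-quartile scaling (median 1.46). The immune receptor gene RLP23 (AT2G32680) rose by 3.28 ± 0.24, its partner kinase SOBIR1 (AT2G31880) by 2.52 ± 0.22, and GHR1 (AT4G20940), of guard cell hydrogen peroxide signalling, changed by -2.26 ± 0.24 (log2, adjusted p = 7.1e-06, 2.2e-05 and 6.0e-05 by edgeR). SOBIR1 shares 32% of its exon bases with genes on the opposite strand and is uncertain if the counting ignored strand. Cytoplasmic kinases that link receptors and oxidases rose for 5 of 6 (median 1.04). BIK1 (AT2G39660), which phosphorylates RBOHD, rose from 10.5 ± 1.57 to 111 ± 4.37 CPM and its close homolog PBL1 (AT3G55450) from 13.5 ± 1.88 to 70.7 ± 4.95 CPM (adjusted p = 5.3e-07 and 2.2e-06 by edgeR).

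Calcium-regulated kinases and their sensors rose for 8 of 11 and fell for 1 (median 1.58), or 7 and 1 of 10 without CIPK11, which passed the filter only through high light. Among the risen genes, CPK1 (AT5G04870) has 99.3% of its exon bases in a gene of the same strand and is uncertain. CIPK11 has 98.2% in an opposite-strand gene and is uncertain if the counting ignored strand. Over all tested genes 30.4% rose and 30.4% fell. The sensor gene CBL1 (AT4G17615) rose from 6.77 ± 0.799 to 119 ± 39.9 CPM, CPK28 (AT5G66210), which promotes turnover of BIK1, from 19.2 ± 2.38 to 72.8 ± 6.64 CPM, and CIPK26 (AT5G21326), a kinase that CBL1 recruits to RBOHF, fell from 50.2 ± 1.5 to 34.5 ± 1.6 CPM (adjusted p = 2.9e-06, 7.1e-06 and 0.00252 by edgeR). Of 9 calcium channels and pumps 4 rose and 4 fell (median -0.03), as even a division as over all tested genes. The channel gene CNGC20 (AT3G17700) and the pump gene ACA8 (AT5G57110) rose by 3.02 ± 0.19 and 2.05 ± 0.19, and the channel genes CNGC2 (AT5G15410) and GLR3.6 (AT3G51480) changed by -1.72 ± 0.20 and -1.89 ± 0.18 (log2, adjusted p = 3.0e-06, 2.8e-05, 1.0e-04 and 4.1e-05 by edgeR). G proteins, ROP GTPases and phospholipases D rose for 7 of 11 and fell for 2 (median 1.36). XLG2 (AT4G34390), which works with BIK1, rose by 2.59 ± 0.22 and AGG2 (AT3G22942), with 16.8% of its exon bases in a gene of the same strand, by 1.85 ± 0.18, while ROP4 (AT1G75840) and ROP6 (AT4G35020) (the former 90.4% identical to ROP2) changed by -0.54 ± 0.11 and -0.37 ± 0.13 (log2, adjusted p = 1.9e-05, 3.4e-05, 0.00257 and 0.0405 by edgeR). The call of ROP6 was lost under 11 of 15 alternatives, and this list held 1 to 3 fallen genes over them.

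**Figure D4:**
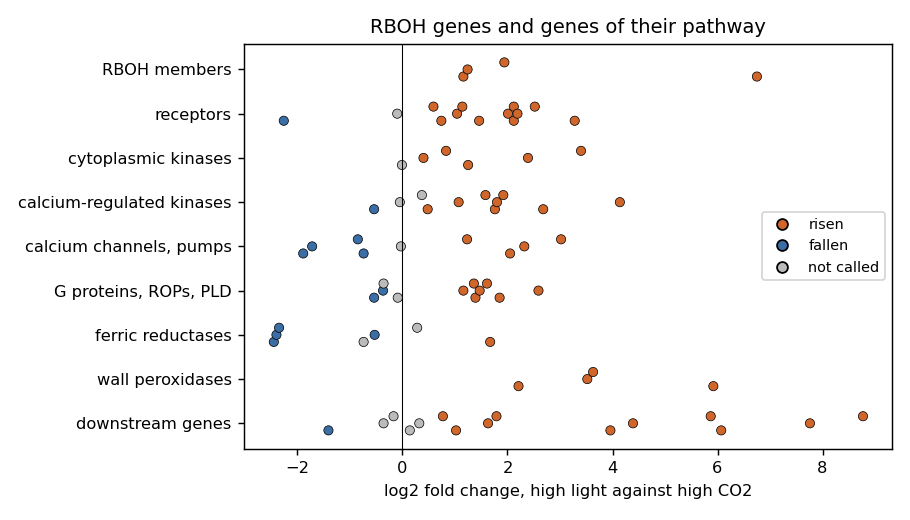
Log2 fold change of each tested gene, in rows by role (points are spread vertically for sight only), colored by call. RBOHC at 6.75 stands to the right of the other RBOH genes, which lie between 1.16 and 1.94. Of 7 tested ferric reductase genes 4 fell and 1 rose, beside 30.4% fallen and 30.4% risen over all tested genes. Among the 4, FRO1 passed the filter only through high CO2.

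Ferric reductase oxidases (FROs), which carry the same kind of electron-transferring membrane domain as RBOHs, rose for 1 of 7 tested and fell for 4 (median -0.74), beside 30.4% fallen over all tested genes. Without FRO1, which passed the filter only through high CO2, 3 of 6 fell (median -0.63). FRO6 (AT5G49730) and the chloroplast reductase gene FRO7 (AT5G49740), 92.5% identical in coding sequence, fell from 197 ± 29.1 to 35.9 ± 9.34 and from 188 ± 16.5 to 36.7 ± 8.28 CPM (adjusted p = 2.0e-05 and 1.1e-05 by edgeR). FRO1 (AT1G01590), FRO2 (AT1G01580) and FRO3 (AT1G23020) changed by -2.40 ± 0.52, -0.53 ± 0.18 and 1.67 ± 0.17 (log2, adjusted p = 0.00329, 0.0302 and 5.8e-05 by edgeR). FRO1 was at -1.68 without replicate 3 of both groups, and the call of FRO2 was lost under 9 of 15 alternatives. Wall peroxidases, another source of reactive oxygen outside the cell, rose for 4 of 4 (median 3.58), beside 30.4% risen over all tested genes. PRX52 passed the filter only through high light, and without it 3 of 3 rose (median 3.52). PRX33 (AT3G49110) rose from 12, 14 and 25 counts to 726, 1024 and 1567, PRX34 (AT3G49120), 90.4% identical to it, by 2.21 ± 0.17 and PRX71 (AT5G64120) by 3.52 ± 0.25 (log2, adjusted p = 4.7e-06, 8.5e-06 and 6.7e-06 by edgeR). PRX52 (AT5G05340) rose from 2, 7 and 3 counts to 99, 31 and 30 (3.63 ± 0.68, adjusted p = 0.00168 by edgeR), with log2 fold changes of 2.80 without high light replicate 1 and 4.26 without high CO2 replicate 2.

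Of 15 genes listed by role as downstream of the oxidases, 10 rose and 1 fell, or 2 without high light replicate 1 (median 1.63). Over all tested genes 30.4% rose and 30.4% fell. Whether these genes followed reactive oxygen from the oxidases was not tested. OXI1, FRK1, NHL10 and PHI-1 passed the filter only through high light, and of the other 11 genes 6 rose and 1 fell (median 0.77). The hydrogen peroxide-inducible kinase gene OXI1 (AT3G25250) rose from 0.345 ± 0.119 to 155 ± 35.3 CPM, ZAT12 (AT5G59820), which encodes a zinc-finger protein, from 1.14 ± 0.258 to 247 ± 35.2 CPM, while the aquaporin gene PIP2-1 (AT3G53420), whose protein also lets hydrogen peroxide through, fell from 1381 ± 108 to 522 ± 153 CPM (adjusted p = 2.3e-07, 2.2e-07 and 5.5e-04 by edgeR).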

How the data were processed

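The submitters' processing notes name Trim Galore 0.3.3, TopHat2 2.1.0 with the TAIR10 genome, and featureCounts (Subread 1.4.6). Settings for strand and multi-mapping reads were not given in the sources used here. What the authors deposited is a table of raw counts per gene and library, from which 2 leftover header lines were dropped. Genes were kept by filterByExpr (minimum 10 counts), scaled by TMM (0.932 to 1.07) and tested with edgeR 4.0.16 in R 4.3.3 (glmQLFit with robust dispersions, glmQLFTest, 4 residual degrees of freedom, Benjamini-Hochberg). Standard errors are the unshrunken log2 fold change over the square root of F. Groups came from sample titles. The procedure was run on simulated counts with few changed genes, as many up as down. This did not test the scaling where most genes change. DESeq2 1.42.0, limma-voom (limma 3.58.1), other scalings, no filter, a replicate block and left-out libraries were alternatives.

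The members and lists were chosen with earlier results of these data known. Of the listed loci outside the RBOH family, 11 whose symbol the TAIR10.1 annotation did not pair with the locus were dropped. That annotation did not pair the names RBOHE and RBOHI with AT1G19230 and AT4G11230 either, but these members were kept. Named genes are the RBOHs, per list the 2 largest called rises and falls whose mean log2 CPM reached 1, every called FRO and wall peroxidase, and all markers except 1 that is not reported here. Exon lengths, coding sequence identity (BLAST 2.17.0) and overlaps came from TAIR10.1, which is named differently from the build of the counts, so no coordinates, promoters or proteins are given and the planned motif and protein comparisons were not made.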

Additional observations from a re-analysis of the deposited data

How the results depend on the processing

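RBOHC, RBOHD, RBOHE and RBOHF stayed called upward under all 15 alternatives, with lowest and highest log2 fold changes over 13 edgeR refits of 6.48 and 6.98, 0.89 and 1.40, 1.64 and 2.23, and 0.97 and 1.44 in that order. Where the filter was used, RBOHE passed it only through its high light libraries, so its repeated calls there add nothing. Of 480 values under an alternative, for 32 genes (the 4 tested RBOHs and the pathway genes named by rule), 460 kept direction and call, 20 lost the call (ROP6 and FRO2) and 0 reversed. The pathway genes were named because they were called, so this tally is a description and adds no support to their calls. Among the 32 genes, RBOHE, OXI1, PRX52 and FRO1 passed the filter only through the group where they were high. The pathway lists, with 76 genes tested when all libraries were kept, held 47 to 51 risen and 11 to 16 fallen genes over the alternatives. Of these 76, 7 passed the filter only through the group where they were high. Over all tested genes 30.4% rose and 30.4% fell, and with upper-quartile scaling 4386 rose and 7883 fell. The labels do not state that a number marks the same run of the experiment in both groups, so the replicate numbers were not taken as pairs: same-numbered libraries correlated at 0.219, -0.0207 and 0.41 in their deviations from the group means, and not every library correlated best with its own number. With the replicate block 5880 genes rose and 6071 fell, against 5631 and 5616 without it, and the log2 fold changes were 6.75 for RBOHC, 1.17 for RBOHD, 1.93 for RBOHE and 1.22 for RBOHF. Among these 32 genes the block lost the call of ROP6 (edgeR adjusted p = 0.0502) and changed no other. The shares of RBOHC, RBOHD and RBOHF in the family sum moved by less than 1 SD with coding length or plain counts, and those of the other members were not checked. The count of called RBOH rises, with RBOHE included, was 4 or 5 over the alternatives, the fifth being RBOHI. It entered 5 edgeR refits and was called in each (log2 fold change 2.00 to 3.25). Where the filter was used, RBOHI entered only through its high light libraries, so those calls add nothing to the count. Depth limits RBOHA and RBOHB, which edgeR tested only with no filter.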

Other observations

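Some pathway genes were chosen after their values were seen. Among kinase genes of RBOH regulation, OST1 (AT4G33950) rose by a log2 fold change of 1.25 ± 0.19, CPK5 (AT4G35310) by 1.07 ± 0.16 and CPK6 (AT2G17290) by 1.76 ± 0.28 (edgeR adjusted p = 6.0e-04, 4.2e-04 and 7.3e-04), while CIPK26 (AT5G21326) changed by -0.54 (edgeR adjusted p = 0.00252). Values of 3 more downstream genes, which passed the filter only through high light, follow. FRK1 (AT2G19190) rose from 0.638 ± 0.143 to 37.7 ± 8.31 CPM (edgeR adjusted p = 4.4e-07), PHI-1 (AT1G35140) from 0.262 ± 0.26 to 5.73 ± 2.93 CPM (edgeR adjusted p = 6.3e-04) and NHL10 (AT2G35980) from 0.171 ± 0.178 to 2.8 ± 0.622 CPM (edgeR adjusted p = 4.1e-04). The receptor gene FLS2 (AT5G46330) rose by a log2 fold change of 0.74 (edgeR adjusted p = 0.00221).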
